A study of Mus musculus with 18 samples.

Results

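Il34 and 9 other cytokine genes of epithelial cells (Csf1, Ccl2, Ccl7, Ccl20, Lif, Tnf, Il1a, Il18 and Il6) were followed in mIMCD-3 cells, an established line of the mouse inner medullary collecting duct. The 10 genes were taken by their symbol in the array annotation. Each was measured by 1 transcript cluster, a set of probes along the transcript summarised as 1 value, so that they make up 10 of the 23410 clusters with a gene symbol. Total RNA was hybridised to 18 Affymetrix Mouse Gene 1.0 ST arrays from 2 experiments, each with 3 groups of 3 independent biological replicates treated for 24 h. The first experiment compared vehicle (0.1% ethanol with 0.1% DMSO), 1 µM AGN193109, and 1 µM AGN193109 with 0.2 µM all-trans retinoic acid (tRA). The second compared the same vehicle, 25 µM DEAB, and 25 µM DEAB with 0.01 µM tRA. AGN193109 blocks all retinoic acid receptors (RARs), whereas DEAB blocks the aldehyde dehydrogenases by which cells make tRA. Both experiments asked which transcripts depend on the tRA and RAR activity that the cells have by themselves. All groups come from 1 cell line, which was checked against markers of its type. The group means of Krt8 lay between 13.5 and 14.0 on the log2 scale. Those of the epithelial cadherin Cdh1 lay between 12.2 and 12.9, and those of the water channel Aqp2 between 7.79 and 8.13. All were above the array medians of 7.23 to 7.51, which also count the clusters that carry no symbol. Among clusters with a symbol, Aqp2 lay only near the middle, at mean percentiles of 48.5 to 50.6. Other collecting duct genes lay below the array medians. The water channel Aqp3 had 6.91 to 7.07 and the vasopressin receptor Avpr2 6.47 to 6.97. Of the leukocyte genes, Ptprc, with 5.94 to 6.09, and Adgre1, with 5.04 to 5.17, lay below the medians. Cd68, with 8.81 to 9.32, Csf1r, with 8.64 to 9.87, and Cd14, with 7.52 to 8.07, lay above them. Among clusters with a symbol, Cd14 lay below the middle, at mean percentiles of 45.9 to 49.0.

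IL-34 and CSF1 are unlike in sequence but share a receptor, the tyrosine kinase CSF1R, through which they keep macrophages alive and make them divide. In the kidney, tubule cells release both of them after injury. CCL2 and CCL7 draw monocytes through the receptor CCR2, and CCL20 draws lymphocytes and dendritic cells through CCR6. IL-6 and LIF act through receptors that contain the shared subunit IL6ST and activate STAT3, while TNF, IL-1α and IL-18 act on receptors that turn on NF-κB.

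Il34 was lower with AGN193109 on every array. Its log2 levels were 9.34, 9.46 and 9.38 in vehicle replicates 1 to 3 and 8.60, 8.68 and 8.73 with AGN193109. With tRA added they were 9.17, 9.25 and 9.28. The 3 groups did not overlap, and the levels with tRA lay between those of vehicle and of AGN193109 alone. The AGN193109 group differed from vehicle by -0.72 (SE 0.07, 95% interval -0.88 to -0.56, n = 3 per group), a level 1.65-fold lower. Within replicate numbers the differences were -0.73, -0.78 and -0.65. With tRA, Il34 was 0.56 above AGN193109 alone (SE 0.07, 95% interval 0.40 to 0.72), which is 1.48-fold, by 0.57, 0.57 and 0.55 within replicate numbers. Its difference from vehicle was then -0.16 (SE 0.07, 95% interval -0.32 to 0.00), negative in all 3 replicate numbers. With replicate number as a block in the fit, this interval was -0.30 to -0.01. On the log2 scale tRA brought back 78.2% of the difference from vehicle, and 77.6%, 73.5% and 84.5% within replicates 1 to 3. Il34 is on the list of genes that the study selected from these arrays, so its differences are given as a description, without p-values.

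With DEAB, Il34 was again lower than vehicle within each replicate number, on a wider spread between replicates, and with tRA it was above vehicle rather than below it. The log2 levels of Il34 were 9.91, 9.70 and 9.47 in vehicle replicates 1 to 3, and 9.70, 9.37 and 9.39 with DEAB. With DEAB and tRA they were 10.06, 9.86 and 9.71. The vehicle and DEAB groups overlapped, since DEAB replicate 1 was above vehicle replicate 3, whereas every array with tRA was above every array with DEAB alone. The DEAB group differed from vehicle by -0.20 (SE 0.14, 95% interval -0.52 to 0.11), or 1.15-fold, with -0.21, -0.33 and -0.07 within replicate numbers. With the block the interval was -0.33 to -0.08. In the fit without the block the difference was -0.09 without vehicle replicate 1, -0.32 without vehicle replicate 3 and -0.31 without DEAB replicate 1. Leaving out 1 array leaves the replicate numbers unequal between the groups, so these shifts include differences between replicate numbers. With tRA, Il34 was 0.39 above DEAB alone (SE 0.14, 95% interval 0.08 to 0.70), or 1.31-fold, with 0.36, 0.49 and 0.32 within replicate numbers. It was also 0.18 above vehicle (SE 0.14, 95% interval -0.13 to 0.49, or 0.05 to 0.31 with the block). It was on the higher side in all 3 replicate numbers. This difference was 0.29 and 0.07 without vehicle replicate 1 and replicate 3, and 0.09 without DEAB+tRA replicate 1. The doses of tRA, 0.2 µM and 0.01 µM, differed between the experiments, so the levels with tRA are only set side by side.

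**Figure D1:**
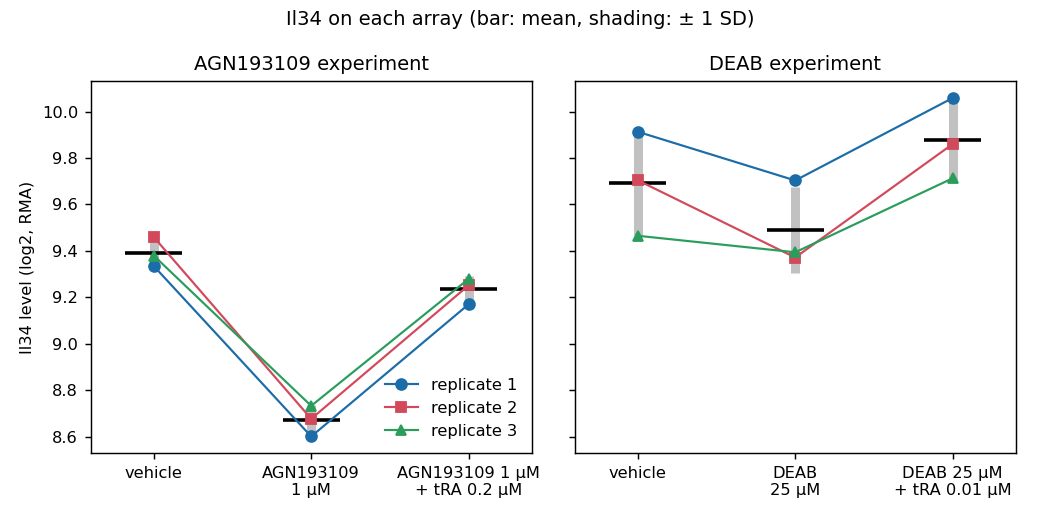
Log2 level of Il34 on each of the 18 arrays, with lines joining arrays of 1 replicate number, black bars at group means and grey shading of 1 SD either side (n = 3). In every replicate number of both experiments the inhibitor array is the lowest of its 3 arrays, and the gap below vehicle is 0.72 with AGN193109 and 0.20 with DEAB.

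The effect of AGN193109 on Il34 was more negative than that of DEAB by -0.52 (SE 0.16, 95% interval -0.85 to -0.18, all 18 arrays), as the difference between the inhibitor effects of both experiments. With replicate number as a block the interval was -0.69 to -0.35. This contrast called no cluster of any gene without the block, or 0% of 23410, with 539 at an unadjusted p under 0.05. It called 1 cluster with the block, or 0.00427%, which is none of the 10 genes. One inhibitor blocks receptors and the other blocks synthesis, at doses of 1 µM and 25 µM, and the experiments had vehicle arrays of their own.

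Il34 was the only one of the 10 genes that limma called at an adjusted p under 0.05 in any comparison. Since the arrays of 1 replicate number deviated together, the calls were also made with replicate number as a block. For AGN193109 against vehicle, 1 of 10 was called, Il34, where 0.0683% of all clusters were called, and with the block it was again Il34 alone, against 0.457%. The call without the block was lost when AGN193109 replicate 1 or replicate 2 was left out, with differences of -0.69 and -0.72. For AGN193109+tRA against AGN193109, none of 10 was called, against 0.0214%, and with the block Il34 was called, against 0.0812%. For AGN193109+tRA against vehicle, none was called in either fit, against 0% and 0.00427%, while 418 clusters had an unadjusted p under 0.05 without the block.

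For DEAB against vehicle, none of 10 was called in either fit, against 0.0342% and 0.303% of all clusters. For DEAB+tRA against DEAB, none was called without the block, against 0.325%, and Il34 was called with it, against 1.5%. For DEAB+tRA against vehicle, none was called in either fit, against 0% and 0.0214%, with 1403 clusters at an unadjusted p under 0.05 without the block. Groups that did not overlap were seen for Il34 alone among the 10. This was so for AGN193109 against vehicle (6.02% of all clusters), AGN193109+tRA against AGN193109 (4.15%), AGN193109+tRA against vehicle (3.87%) and DEAB+tRA against DEAB (9.21%). In DEAB against vehicle (6.89%) and DEAB+tRA against vehicle (8.07%) all 10 genes overlapped. At an unadjusted p under 0.05 without the block, Il34 alone passed in AGN193109 against vehicle, beside 772 of all 23410 clusters. It also passed alone in AGN193109+tRA against AGN193109 (501 clusters) and DEAB+tRA against DEAB (1496). No gene of the 10 passed in the other comparisons, with 948 clusters in DEAB against vehicle. With the block, 4 of 10 passed in AGN193109 against vehicle (Ccl20, Csf1, Il34 and Lif), beside 1636 of 23410 clusters. In AGN193109+tRA against AGN193109, 2 passed (Il34 and Lif), beside 1218 clusters. In AGN193109+tRA against vehicle, 2 passed (Ccl20 and Il34), beside 1181. In the DEAB experiment, 3 passed with the block in DEAB against vehicle (Ccl20, Csf1 and Il34), beside 1871 clusters. There were 2 in DEAB+tRA against DEAB (Csf1 and Il34), beside 2764, and Il34 alone in DEAB+tRA against vehicle, beside 2595. As Il34 was selected on these contrasts, its calls add nothing to the values above. The study listed Lif for AGN193109 on these arrays, so its passing in the AGN193109 experiment is no test either. The 10 genes were chosen with earlier results known, so these counts are a description.

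**Figure D2:**
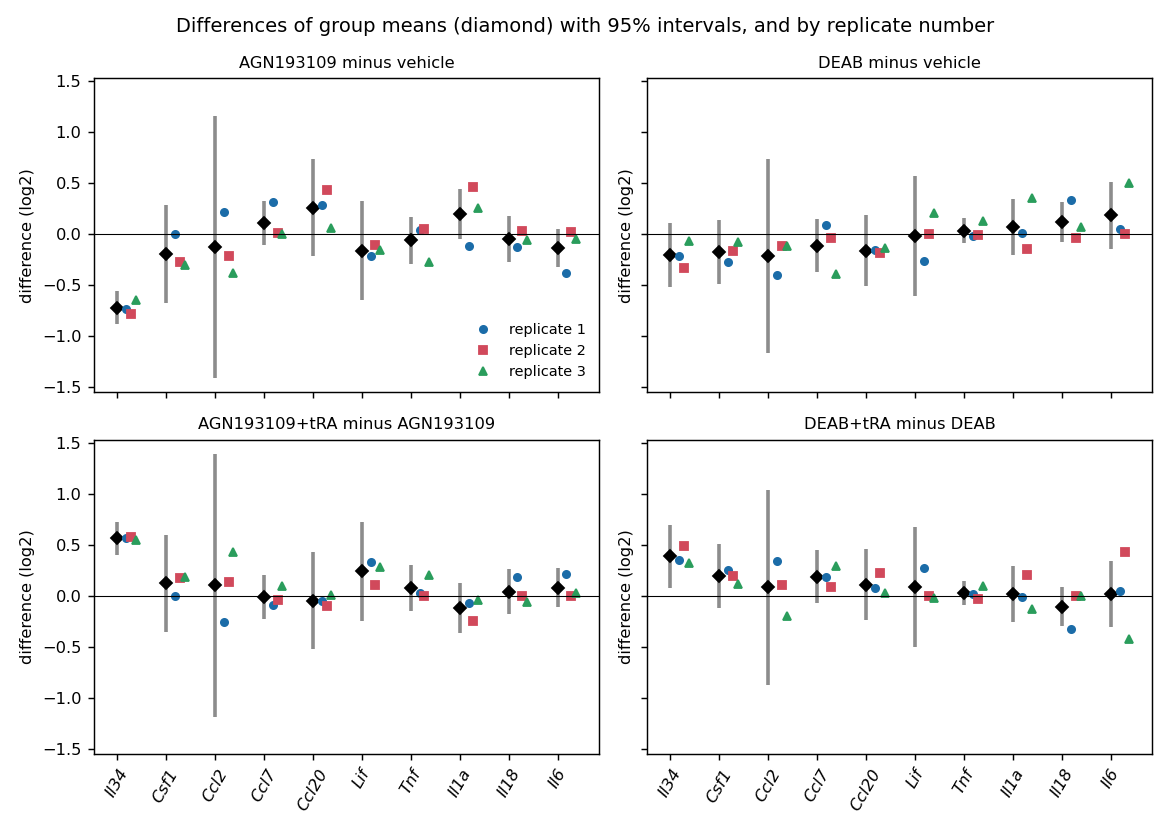
Differences of log2 group means (diamonds) with 95% intervals from limma (grey bars) for the 10 cytokine genes in 4 comparisons, and the same differences within replicates 1 to 3 (coloured symbols). The intervals are from the fit without the block. That of Il34 lies away from 0 in 3 of the panels, and all those of the other 9 genes include 0.

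Csf1, the other ligand of CSF1R, was measured at log2 levels of 11.13, 11.58 and 10.98 in vehicle replicates 1 to 3 of the AGN193109 experiment, and at 11.13, 11.31 and 10.68 with AGN193109. In replicate 1 its value was exactly equal in all 3 groups, so this replicate carries no difference. The mean difference was -0.19 (95% interval -0.67 to 0.28, adjusted p = 1.00 by limma). With replicate number as a block the interval was -0.37 to -0.02 and the adjusted p 0.660. In the DEAB experiment Csf1 had 11.89, 11.58 and 11.43 with vehicle, 11.62, 11.41 and 11.36 with DEAB, and 11.87, 11.61 and 11.47 with DEAB+tRA. It was lower with DEAB than with vehicle in each replicate number, by -0.27, -0.17 and -0.07, and higher with tRA than with DEAB alone, by 0.25, 0.20 and 0.12. The groups overlapped in both cases. The mean differences were -0.17 (95% interval -0.49 to 0.14, adjusted p = 1.00) and 0.19 (95% interval -0.13 to 0.50, adjusted p = 0.883). With the block the intervals were -0.28 to -0.06 and 0.08 to 0.30, and the adjusted p-values were 0.372 and 0.153.

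Among the chemokines, Ccl2 varied most between replicates. In the AGN193109 experiment it had 9.72, 11.48 and 10.11 in vehicle replicates 1 to 3, 9.95, 11.27 and 9.73 with AGN193109, and 9.69, 11.40 and 10.16 with AGN193109+tRA. In the DEAB experiment it had 11.64, 10.59 and 10.49 with vehicle, 11.23, 10.48 and 10.37 with DEAB, and 11.58, 10.58 and 10.17 with DEAB+tRA. Replicate 2 was the highest in every group of the first experiment, and replicate 1 in every group of the second. Against vehicle the differences were -0.12 with AGN193109 (95% interval -1.41 to 1.16) and -0.21 with DEAB (95% interval -1.17 to 0.74), both with an adjusted p of 1.00. With replicate number as a block the intervals were -0.41 to 0.16 and -0.44 to 0.01. Ccl7 lay between 6.50 and 6.84 with vehicle and AGN193109 and between 6.70 and 7.12 with vehicle and DEAB. Its differences were 0.11 and -0.11, both with an adjusted p of 1.00.

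Ccl20 took opposite directions with the inhibitors. With vehicle and with AGN193109 it had 7.04, 7.56 and 7.56 against 7.32, 7.99 and 7.62, higher by 0.28, 0.43 and 0.06 within replicate numbers. With vehicle and with DEAB it had 7.70, 7.28 and 7.37 against 7.55, 7.09 and 7.23, which differ by -0.16, -0.19 and -0.14. The groups overlapped in both experiments. Neither mean difference passed the test, with 0.26 for AGN193109 (95% interval -0.21 to 0.73) and -0.16 for DEAB (95% interval -0.51 to 0.19), both with an adjusted p of 1.00. With the block the intervals were 0.07 to 0.45 and -0.27 to -0.05, and the adjusted p-values were 0.456 and 0.419.

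**Figure D3:**
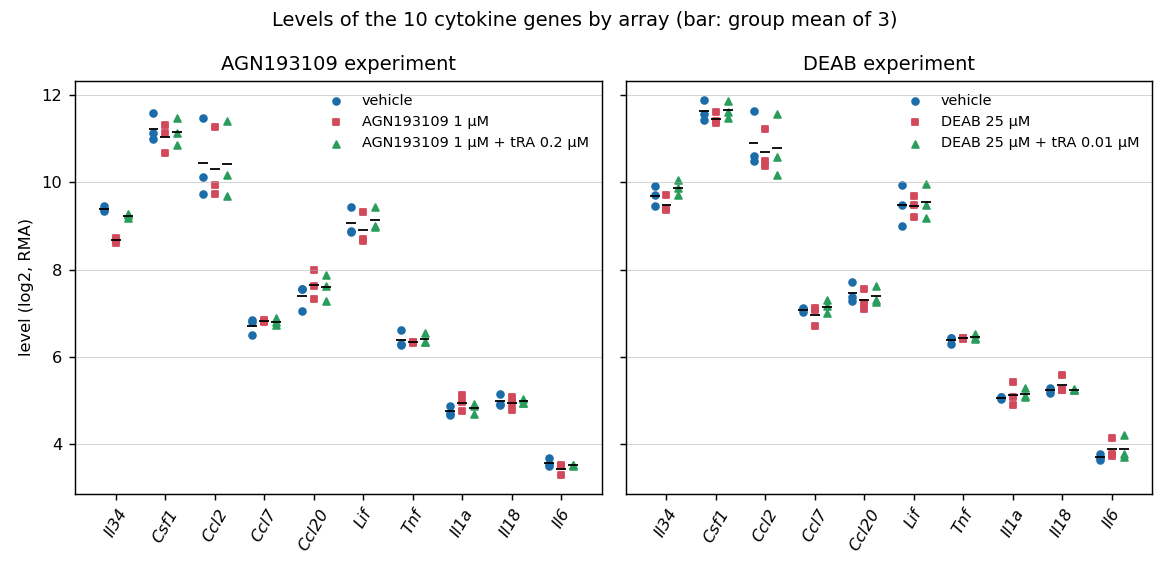
Log2 levels of the 10 cytokine genes on each array, by group, with a bar at each mean of 3. Levels of different genes come from different probes and are not compared. The groups of the other 9 genes overlap in every comparison, and the Il34 arrays with AGN193109, at 8.60 to 8.73, are below all arrays of vehicle and of AGN193109+tRA.

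Of the cytokines that act through IL6ST, Lif had 8.88, 9.44 and 8.86 in vehicle replicates 1 to 3 and 8.66, 9.33 and 8.70 with AGN193109. It was lower with AGN193109 in each replicate number, by -0.21, -0.11 and -0.16, and higher with AGN193109+tRA than with AGN193109 alone, by 0.33, 0.11 and 0.28. The groups overlapped, and the means differed by -0.16 (95% interval -0.65 to 0.33) and 0.24 (95% interval -0.25 to 0.73). With replicate number as a block these intervals were -0.32 to -0.0032 and 0.08 to 0.39. The study listed Lif for AGN193109 on these arrays, so no p is given there. With vehicle and with DEAB it had 9.95, 9.48 and 9.00 against 9.68, 9.48 and 9.21, with differences in both directions and a mean of -0.02 (95% interval -0.61 to 0.57, adjusted p = 1.00). Il6 had group means of 3.43 to 3.89, below the 5th percentile of all levels (4.43 and 4.62 in the experiments with AGN193109 and DEAB). No detection call was used here, and at such levels a difference may not be detectable.

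Tnf, Il1a and Il18 were near one level in all groups. The group means of Tnf lay between 6.33 and 6.45, those of Il1a between 4.74 and 5.15, and those of Il18 between 4.93 and 5.35. Il1a and Il18 were low on the arrays, at mean percentiles of 7.24 to 9.19 and 8.57 to 11.3 among clusters with a symbol. A difference may not be detectable at such levels either. The largest inhibitor difference among these 3 genes was 0.20 for Il1a with AGN193109 (95% interval -0.05 to 0.45, adjusted p = 1.00), with replicate 1 on the other side at -0.12. For Il18 it was 0.12 with DEAB (95% interval -0.07 to 0.31), with 0.33 in replicate 1 and -0.04 in replicate 2. Over the 10 genes the median difference from vehicle was -0.09 with AGN193109, beside 0.02 over all clusters, and -0.07 with DEAB, beside 0.00. With tRA added to the inhibitor it was 0.08 beside -0.01, and 0.08 beside 0.01.

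Csf1, Ccl2, Ccl20 and Lif differed more between replicate numbers than between treatments, and Il34 with AGN193109 was the reverse. In the AGN193109 experiment, treatment group took 97.4% of the spread of Il34 over the 9 arrays and replicate number 2.02%, where the medians over all clusters were 16.2% and 37.0%. Replicate number took 96.3% for Ccl2, 86.8% for Csf1, 85.8% for Lif and 78.5% for Ccl20. The means of Ccl2 by replicate number spanned 1.60, and its means by group 0.12. In the DEAB experiment replicate number took 93.5% for Ccl2, 91.5% for Lif, 84.3% for Ccl20 and 74.6% for Csf1, beside a median of 33.1% over all clusters. Il34 was divided there between group, with 49.6%, and replicate number, with 46.3%. These shares describe the arrays. A replicate number stands for an independent biological experiment, and its date and culture are not known here.

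**Figure D4:**
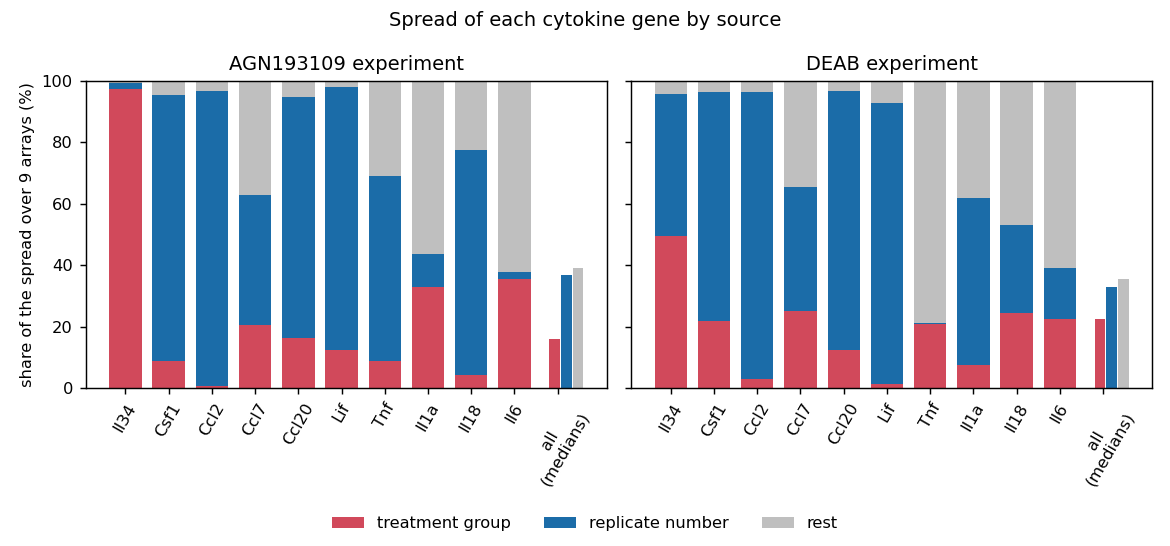
Share of the sum of squares over the 9 arrays of each experiment that lies between treatment groups, between replicate numbers, and in the rest, for each cytokine gene. The narrow bars at the right are medians over all 23410 clusters. Treatment group takes 97.4% for Il34 in the AGN193109 experiment, and replicate number takes between 74.6% and 96.3% for Csf1, Ccl2, Ccl20 and Lif over both.

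The replicate that was high was the same for several of these genes. The means of Csf1, Ccl2 and Lif were highest in replicate 2 of the AGN193109 experiment, and highest in replicate 1 and lowest in replicate 3 of the DEAB experiment. Ccl20 was highest in the same replicates and lowest in replicate 2 of the DEAB experiment. This order, read off the 3 genes, was held by 7.92% of all clusters. Among 17 target and feedback genes of NF-κB it was held by 8, or 47.1%, namely Birc3, Icam1, Nfkb2, Nfkbia, Nfkbib, Nfkbie, Relb and Tnfaip3. Among 24 clusters of other epithelial cytokines it was held by 9, or 37.5%, namely Ccl25, Ccl5, Csf2, Csf3, Il15, Il23a and 3 clusters of Mif. Among 17 clusters of receptors and binding partners it was held by 2, Il18r1 and Il18rap, among 14 epithelial markers by 1, Krt18, and among 11 clusters of STAT3 target and feedback genes by 1, Socs3. Of 6 neighbours of Il34 it was held by 1, Sf3b3. It was held by none of the genes for processing of the cytokines and of the leukocyte, fibroblast and endothelial markers. The counts are a description, since the order was chosen after the values were seen.

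**Figure D5:**
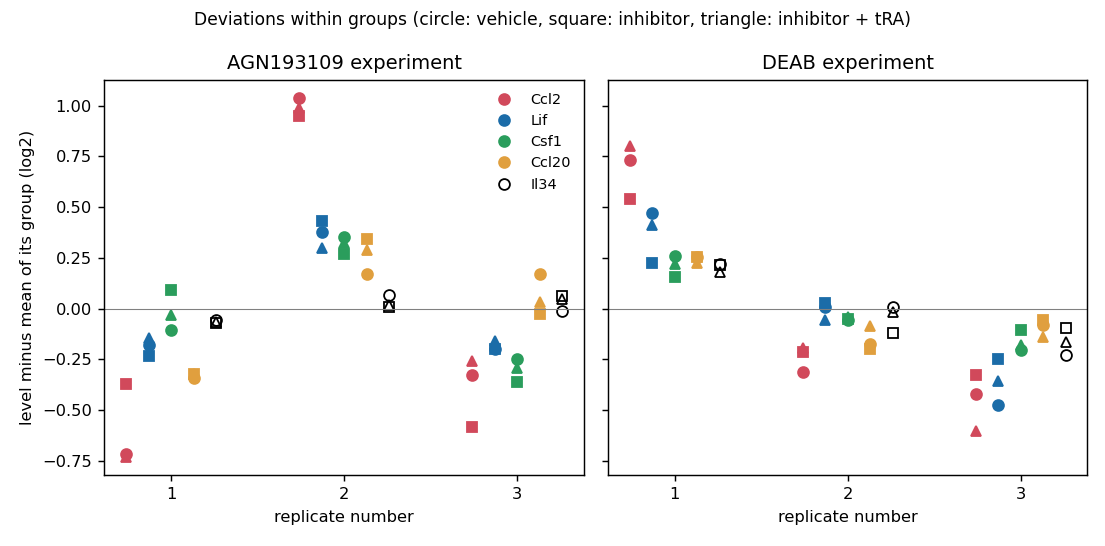
Log2 level minus the mean of its group, on each array, for Ccl2, Lif, Csf1, Ccl20 and Il34 (open symbols), by replicate number. All 3 groups of a replicate number deviate to the same side for Ccl2 and Lif in the AGN193109 experiment, and Il34 stays near 0 there.

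The promoters of these genes were searched for sequence motifs of NF-κB and of RARs. The RefSeq windows, from 250 bases before to 50 bases after the start of transcription, were matched by symbol for 7 of the 10 genes (Ccl20, Csf1, Il18, Il1a, Il6, Lif and Tnf). Those of Il34, Ccl2 and Ccl7 were not analysed here. A match to the κB consensus, on either strand, was found for Ccl20, Csf1, Il6 and Lif, or 4 of 7, and in 8.46% of all 32851 windows. The half-site AGGTCA that RARs bind, on either strand, was found for Ccl20 alone, or 1 of 7, and in 16.3% of all windows. Replicate number took most of the spread of Ccl20, Csf1 and Lif in both experiments. For Il6, which also had a κB match, it took 2.45% (AGN193109) and 16.7% (DEAB). In the genes without a κB match it took, in the same order, 73.3% and 28.6% for Il18 and 60.3% and 0.284% for Tnf. For Il1a it took 10.7% and 54.4%. A link between the matches and the spread was not tested. Windows of Ccl20, Csf1 and Lif are shown, in GRCm38.p6 and 5′ to 3′ on the strand of the gene, as sequence behind the counts of matches. Capitals mark the κB match of 10 bases and, in Ccl20, also the half-site nearer the 5′ end. The half-site and the κB matches of Ccl20 and Csf1 read on the other strand, and the κB match of Lif reads on both.
Ccl20, chr1:83116516-83116815, + strand: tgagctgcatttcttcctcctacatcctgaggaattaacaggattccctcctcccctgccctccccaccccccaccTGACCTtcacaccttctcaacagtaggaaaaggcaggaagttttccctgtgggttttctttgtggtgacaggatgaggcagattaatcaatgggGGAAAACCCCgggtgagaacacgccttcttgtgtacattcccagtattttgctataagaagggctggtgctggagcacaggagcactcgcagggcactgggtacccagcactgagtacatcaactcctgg
Csf1, chr3:107760420-107760719, - strand: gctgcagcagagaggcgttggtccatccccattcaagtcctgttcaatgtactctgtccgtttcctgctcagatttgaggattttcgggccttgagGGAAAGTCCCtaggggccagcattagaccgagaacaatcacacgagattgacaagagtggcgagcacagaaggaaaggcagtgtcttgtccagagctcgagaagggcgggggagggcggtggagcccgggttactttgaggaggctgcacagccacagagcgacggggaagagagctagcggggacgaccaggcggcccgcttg
Lif, chr11:4257318-4257617, + strand: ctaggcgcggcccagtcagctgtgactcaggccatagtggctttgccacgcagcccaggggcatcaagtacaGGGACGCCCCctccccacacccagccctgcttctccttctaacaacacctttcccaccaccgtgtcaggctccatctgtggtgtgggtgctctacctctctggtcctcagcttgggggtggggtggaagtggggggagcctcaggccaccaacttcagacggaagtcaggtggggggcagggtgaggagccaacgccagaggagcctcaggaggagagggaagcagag
The κB match begins 80 bases before the start of transcription in Ccl20, 154 bases before it in Csf1 and 178 bases before it in Lif, and the half-site of Ccl20 begins 174 bases before it. A match is a run of letters and does not show that a factor binds there.

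Receptors of the cytokines were measured in the same cells. Of 17 clusters for receptors and binding partners, none was called in any comparison with or without the block. The group means of Csf1r lay between 8.64 and 9.87, with SDs of 0.60 to 0.99 within groups and single arrays from 7.61 to 10.4. The group means of Ptprz1, another receptor of IL-34, lay between 4.33 and 4.51. Those of Sdc1, a proteoglycan that binds IL-34, lay between 10.5 and 11.1. Ccr2, the receptor of CCL2, lay between 4.15 and 4.30. Ptprz1 and Ccr2 were thus near or below the 5th percentile of all levels (4.43 with AGN193109 and 4.62 with DEAB). At such levels a difference may not be detectable. The lowest unadjusted p with AGN193109 was that of Tnfrsf1b, a receptor of TNF, which differed from vehicle by -0.47 (SE 0.09, adjusted p = 0.185, or 0.0612 with the block). With DEAB, Tnfrsf1b differed by -0.23 (SE 0.12, adjusted p = 1.00). Of 7 genes for processing of the cytokines, among them Casp1, which cleaves IL-18, and Adam17, which sheds TNF, none was called. The lowest unadjusted p was that of the calpain Capn1 with AGN193109, at -0.16 (SE 0.09), and of the inflammasome adaptor Pycard with DEAB, at -0.12 (SE 0.07), both with an adjusted p of 1.00. The median differences of the 7 genes from vehicle were 0.02 with AGN193109 and -0.02 with DEAB, beside 0.02 and 0.00 over all clusters. Casp1 had group means of 4.04 to 4.50, below the 5th percentile of its experiment, where a difference may not be detectable.

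Of the 17 NF-κB target and feedback genes none was called without the block in any comparison. With the block Bcl3, a nuclear partner of NF-κB, was called lower with AGN193109 than with vehicle, by -0.44 (adjusted p = 0.0354). Without the block its SE was 0.11 and its adjusted p 0.59. Its other differences were 0.24 for tRA added to AGN193109, -0.24 for DEAB against vehicle and 0.33 for tRA added to DEAB, and none of these was called in either fit. None of the 11 clusters of STAT3 target and feedback genes was called in any comparison. Their median difference from vehicle was 0.07 with AGN193109 and 0.03 with DEAB, and the lowest unadjusted p-values were those of Fos with AGN193109, at 0.19 (SE 0.11, adjusted p = 1.00), and of the repressor Bcl6 with DEAB, at 0.15 (SE 0.08, adjusted p = 1.00). Among 24 clusters of other epithelial cytokines, 1 was called and only with the block. Cx3cl1, the fractalkine that tethers leukocytes, was lower with DEAB+tRA than with DEAB, by -0.38 (adjusted p = 0.0223 with the block). Without the block its SE was 0.16 and its adjusted p 0.778.

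Markers of cell types were compared in the same way. Of 14 epithelial and collecting duct clusters none was called without the block. With it the kidney cadherin Cdh16 was called lower with DEAB+tRA than with DEAB, by -0.52 (adjusted p = 0.0221). Without the block the SE of Cdh16 was 0.21 and its adjusted p 0.752. Krt7 had the lowest unadjusted p with AGN193109, at -0.31 (SE 0.08, adjusted p = 0.63). None of 10 leukocyte clusters was called in any comparison, and the mean of the list lay between 6.55 and 6.72 on the vehicle arrays and between 6.57 and 6.70 on the AGN193109 arrays. All 10 fibroblast and endothelial clusters were on the higher side in DEAB+tRA against vehicle and in DEAB+tRA against DEAB, where Il34 was also higher. In DEAB against vehicle, where Il34 was lower, 9 of the 10 were on the higher side as well. None of them was called in any comparison. Against vehicle, their median difference with DEAB+tRA was 0.13 beside 0.00 over all clusters, and the mean of the list lay between 6.73 and 6.77 with vehicle and between 6.80 and 6.97 with DEAB+tRA. In that comparison the endothelial receptor Kdr had the lowest unadjusted p, at 0.18 (SE 0.07, adjusted p = 0.819). The part of these markers in the level of Il34 was not tested. In bulk RNA, fewer cells with a transcript and less of it per cell cannot be told apart.

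Genes beside Il34 on its chromosome were near 0. In the order of the RefSeq gene table, Il34 lies between Mtss2 and Sf3b3. With AGN193109, Mtss2 differed from vehicle by -0.06 (SE 0.12) and Sf3b3 by 0.02 (SE 0.09), and with DEAB by 0.02 (SE 0.15) and -0.02 (SE 0.04). Over the 6 clusters of neighbouring genes that were listed and measured, differences from vehicle ran from -0.09 for Cog4 to 0.08 for St3gal2 with AGN193109 and from -0.04 to 0.04 with DEAB. None was called in any comparison, with or without the block.

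The clusters whose levels were most like Il34 were found by Pearson r over the 18 arrays, after the mean of each experiment was subtracted. Pdgfb, which encodes a chain of platelet-derived growth factor, had r = 0.942, and Msln (mesothelin, a surface protein of mesothelium) had 0.938. Ppp2r5b, a regulatory subunit of protein phosphatase 2A, had 0.935, Proser2 had 0.930 and Ablim1, an actin-binding protein, had 0.923. Over all clusters the median was -0.03, with a 5th percentile of -0.50 and a 95th of 0.43. With AGN193109 these 5 clusters differed from vehicle by -0.62, -0.56, -0.37, -0.31 and -0.38, and with DEAB by -0.36, -0.20, -0.16, -0.12 and -0.23. They were chosen for a high r with Il34 on these same arrays, so the lower side that they share with Il34 is not a separate result. Among the other cytokine genes, Lif had r = 0.515 and Csf1 0.490, the highest of the 9, and Il1a had -0.35, the lowest. Over the 9 arrays of the DEAB experiment alone Csf1 had r = 0.908 with Il34, and over those of the AGN193109 experiment 0.288. The arrays share treatments and replicate numbers, so r measures likeness of pattern in these arrays only.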

How the data were processed

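Total RNA of mIMCD-3 cells was hybridised to 18 Mouse Gene 1.0 ST arrays (Affymetrix). Per the labels, the authors normalized them with RMA in Affymetrix Expression Console and deposited the result as log2 values. Whether both experiments were normalized together and the software version are not given in the sources used here, so groups were compared within experiments. RMA summarises probes by median polish, which can give equal values: 5 of the 10 genes, and 49.7% (AGN193109) and 57.8% (DEAB) of all clusters, had equal values on some of the 9 arrays.

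Values were used as deposited. Of 35556 clusters, 23410 carry a symbol (21789 with 1, 1621 with several) and were tested, and 12146 do not. Of those with 1 symbol, 21698 matched the RefSeq table by gene ID. Arrays were grouped by title, and the short names told which experiment a vehicle array belongs to. Some label fields spell AGN193109 differently, and the titles were followed. No arrays were identical, the lowest correlation between arrays of an experiment was 0.994 (AGN193109) and 0.996 (DEAB), and the median SE of a difference was 0.10 and 0.07.

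Group means were fitted per experiment with limma 3.58.1 in R 4.3.3, with moderated variances and Benjamini-Hochberg adjustment over all tested clusters, and called at an adjusted p under 0.05. The difference of inhibitor effects was a contrast over the 18 arrays. Replicate number as a block was an alternative. The numbers pair the arrays: residual correlations for equal numbers were 0.198 to 0.645 and 0.179 to 0.614 in all 9 pairs of each experiment, and for unequal numbers -0.575 to 0.205 and -0.511 to 0.312. No exact permutation of 3 against 3 arrays can go below 0.1, and the p-values therefore depend on limma's variance model. The fits were tested on simulated data. Other alternatives were quantile normalization again, subtraction of array medians, clusters under the 30th percentile of mean level left out, all clusters, only the 6 arrays compared, 1 fit of 18 arrays, trend and robust options, and each array left out.

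Every member was named. Of each other list, called clusters were named or else some of the 3 with the lowest p, and the 5 clusters most like Il34. The members and lists were chosen with earlier results of these data known. Figures were drawn with matplotlib 3.10.9.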

Additional observations from a re-analysis of the deposited data

Results flagged for a closer look

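For 2 of the 10 genes a difference from vehicle took opposite directions in the experiments, in every replicate number of each. Ccl20 was higher with AGN193109, by 0.26, and lower with DEAB, at -0.16. The effects differed by 0.42 (95% interval -0.17 to 1.01, adjusted p = 1.00 by limma). With replicate number as a block the interval was 0.22 to 0.62 and the adjusted p 0.571, so the difference was not called in either fit. Among all clusters 2.35% took opposite directions in this way.

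Il34 with inhibitor and tRA was lower than vehicle in the AGN193109 experiment, at -0.16, and higher in the DEAB experiment, by 0.18. These differ by -0.34 (95% interval -0.68 to -0.01, and -0.51 to -0.17 with the block). Among all clusters 2.37% took opposite directions here. The experiments used different inhibitors and tRA at 0.2 µM and 0.01 µM, which cannot be told apart from the experiment.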

How the results depend on the processing

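The direction of every Il34 difference was kept under all alternatives run. With AGN193109 against vehicle, Il34 was called without the block, so that 1 of the 10 genes was. With only the 6 arrays compared the difference was -0.72 and no longer called, and the count was 0. Leaving out each array in turn gave -0.75 to -0.69 and counts of 0 to 1, with the call lost without AGN193109 replicate 1 or replicate 2. For AGN193109+tRA against AGN193109 the count was 0 without the block. It became 1, Il34, with the replicate block (0.56), after array medians were subtracted (0.58), and with dim clusters left out (0.56). For DEAB+tRA against DEAB it became 1 with the replicate block (0.39). The block changed no other call among the 10 genes. In no alternative was any of the other 9 genes called. The difference between the inhibitor effects on Il34 ranged from -0.63 to -0.40 over the alternatives. For DEAB against vehicle Il34 ranged from -0.32 to -0.09 when each array was left out, and for DEAB+tRA against vehicle from 0.07 to 0.29. For Ccl2 with AGN193109 the interval was -1.41 to 1.16 without the block and -0.41 to 0.16 with it. The number of arrays limits the precision.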
